A study of Mus musculus with 6 samples.

Results

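Metaphase II (MII) mouse oocytes matured with a ligand of RNA G-quadruplexes (rG4s) were compared with control MII oocytes by their ribosome footprints. The comparison covered 4 of the 6 libraries of the series, 2 of treated oocytes (Treat_MII) and 2 of controls (WT_MII), and all 22416 gene names of the deposited table after 26 repeated entries were left out. The remaining 2 libraries, of fully grown oocytes before maturation (WT_FGO), served as a reference level and for the estimate of the spread. All oocytes had the WT genotype and, per the study's methods, came from 4-week-old C57BL/6 females primed with 5 IU pregnant mare serum gonadotropin 44 h earlier, with 500 oocytes in a library. The labels name the treatment only as Treat. In the study's methods it is BYBX, added to the maturation medium, and the controls received the solvent DMSO. The study calls libraries of a group biological replicates, but neither source says whether they came from separate animals or cultures, nor whether treated oocytes were picked by stage, so p-values measure only the spread between these libraries.

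An rG4 is a four-stranded fold of G-rich RNA, and a stable one in the 5′ untranslated region can hinder the start of translation. Oocytes stop transcription when they are fully grown and then live on stored maternal mRNAs. During maturation one set of these mRNAs is recruited to ribosomes, among them those of the cell cycle and mRNA decay machinery, while another set that served oocyte growth leaves ribosomes and is degraded. Ribo-lite reads this switch from the mRNA fragments shielded by ribosomes. The comparison describes how footprint levels on maternal mRNAs differ between oocytes matured with and without the ligand. Footprints were not divided by mRNA level here. More mRNA and more ribosomes on each mRNA therefore cannot be told apart. From RNA-seq, the study reports higher transcript levels in BYBX-treated than in control MII oocytes.

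The libraries were shallow and differed in depth. The table's values are FPKM, fragments scaled to the length of the coding sequence and to the library's total, and whole reads could be recovered from them. The recovered depth was 164972 and 230907 reads in WT_MII and 331304 and 275604 reads in Treat_MII, so treated oocytes were read more deeply, and the share of genes listed at 0 was 55.4% and 52.3% in WT_MII and 48.2% in both Treat_MII libraries. For that reason most of what follows rests on 2156 well-measured genes, those whose mean level over the 4 MII libraries was worth at least 10 reads in the shallowest of them. A gene could pass through the group in which it was high, with few reads in the other. A library total of footprints cannot be read from FPKM, so each value is a share of its own library. Pools of oocytes were sequenced, so fewer oocytes with footprints on a gene and fewer footprints in each oocyte cannot be told apart.

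WT_MII replicate 1 stood apart. Across the well-measured genes the WT_MII libraries differed by 9.84 times the chi-square expected from counting alone, against 1.64 times for the Treat_MII libraries. In WT_MII replicate 1, 65 genes lay over 4-fold above WT_MII replicate 2. They held 7.93% of its reads, against 1.08% in WT_MII replicate 2 and 0.892% and 0.873% in the Treat_MII libraries. Another 27 genes lay over 4-fold lower in it than in replicate 2. For that reason the values of each control library, or the differences against each, stand beside most results. All 10 oocyte markers (among them Zp3, Gdf9, Ddx4 and Dazl) had reads in each MII library. The 12 granulosa and cumulus markers together held 0.0333% and 0.0243% of the reads in WT_MII and 0.0188% and 0.0238% in Treat_MII, with Fshr and Tnfaip6 at 0 in all 4. A wider list of 28 granulosa and cumulus genes took 0.254% and 0.0673% of the reads in WT_MII and 0.0507% and 0.0517% in Treat_MII, so it was higher in WT_MII replicate 1, where Hsd17b1 alone had 333 reads against 61 in replicate 2. The part of granulosa RNA in the comparison was not tested. Of the 7 blood and immune markers, Hbb-bs, Hbb-bt, Hba-a1 and Lyz2 were at 0 in all 4 libraries, and Pecam1, Ptprc and Cd68 had reads, the 7 together 5 and 19 in WT_MII and 22 and 27 in Treat_MII.

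No gene passed the test between treated and control MII oocytes. In limma on log2(FPKM + 1), fitted over all 6 libraries, 0 of 15129 tested genes (0%) had an adjusted p under 0.05, the smallest adjusted p was 0.249, and 881 genes had an unadjusted p under 0.05 (575 higher and 306 lower in Treat_MII). Across the tested genes, both Treat_MII libraries lay above both WT_MII libraries for 2447 genes (16.2%) and below for 2363 (15.6%). Among the well-measured genes these counts were 505 (23.4%) and 503 (23.3%). The ratio of mean FPKM + 1 passed 2-fold in 3012 tested genes (19.9%) upward and 3201 (21.2%) downward, but in only 86 (3.99%) and 150 (6.96%) of the well-measured genes.

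The counts depended on the control library. Against WT_MII replicate 1 alone, the Treat_MII mean was over 2-fold higher for 221 well-measured genes and over 2-fold lower for 188. Against WT_MII replicate 2 alone, the counts were 110 and 89. More genes were thus higher than lower against either control alone, whereas against the mean of both more were lower. Against both controls at once, 43 genes passed 2-fold upward and 41 downward, and 4 genes moved over 2-fold in opposite directions against the 2 controls. WT_MII replicate 2 was itself over 2-fold above replicate 1 at 189 well-measured genes and over 2-fold below at 208, against 41 and 34 between the Treat_MII libraries. Of the 119 well-measured genes (5.52%) that were over 2-fold lower without overlap, 37 were among the 65 genes high in WT_MII replicate 1, and of the 85 (3.94%) that were over 2-fold higher without overlap, 1 was among these 65 and 7 were among the 27 genes low in that library.

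**Figure D1:**
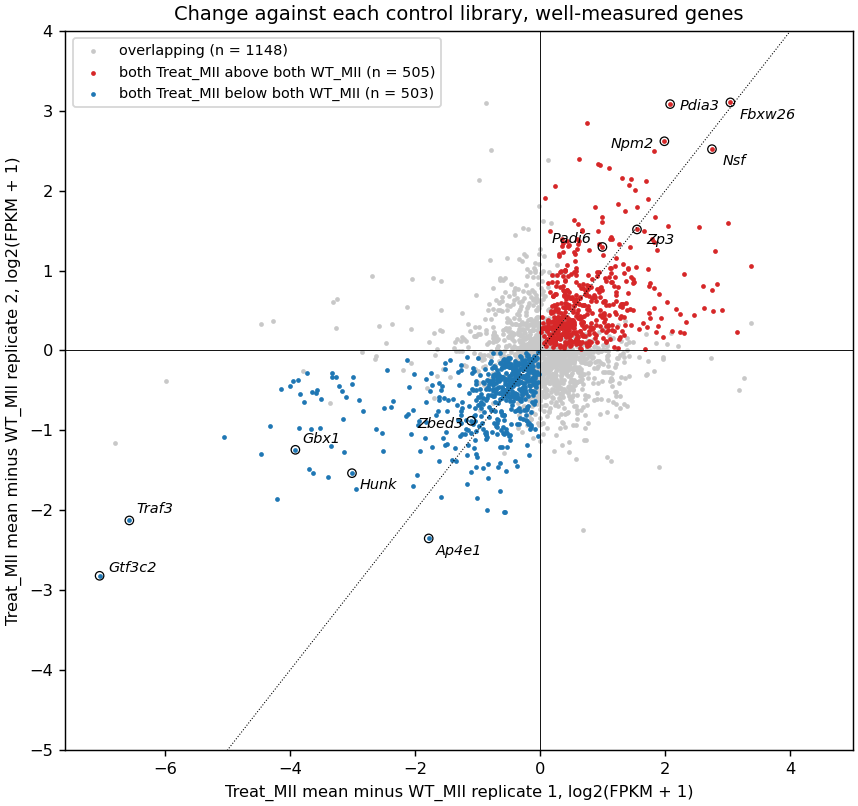
Difference of the Treat_MII mean from WT_MII replicate 1 (horizontal axis) and from WT_MII replicate 2 (vertical axis), both in log2(FPKM + 1), for the 2156 well-measured genes. Red points are the 505 genes with both Treat_MII libraries above both WT_MII libraries and blue points the 503 below. The dotted line marks equal change, and the low arm on the left is spread along the axis of replicate 1. Fbxw26, Nsf and Zp3 lie close to the line, while Npm2 (1.99 and 2.62 against replicates 1 and 2) and Pdia3 (2.08 and 3.09) lie above it.

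The genes that stood furthest above both controls had varied roles, from egg coat and chromatin to vesicle fusion and protein folding. The largest gap between the nearest treated and control libraries belonged to Fbxw26, Nsf, Pdia3, Npm2, Ssb, Elobl, Smc4, Tacc3, Cct5, Btrc, Zp3 and Psmc6, in that order. Npm2, the nucleoplasmin that decondenses sperm chromatin after fertilization, had 293 and 188 FPKM in the controls and 1035 and 1309 FPKM in treated oocytes (30 and 27 reads in WT_MII and 213 and 224 reads in Treat_MII). Differences are on the log2(FPKM + 1) scale. Both treated libraries were far above both controls, by 1.99 and 2.62 against replicates 1 and 2. The fitted difference was 2.30 ± 0.28 (SE), with an adjusted p of 0.447 in limma. With precision weights for low counts, limma on the well-measured genes gave Npm2 an adjusted p of 0.022, the 1 gene called in that fit, which was chosen after the data were seen. In WT_FGO the level of Npm2 was 2390.5 and 2492 FPKM, so its treated level lay between those of control MII and fully grown oocytes. Nsf, an ATPase of vesicle fusion, had 70.2 and 51.95 FPKM in Treat_MII, compared with 8.14 and 9.69 FPKM in WT_MII, from 3 and 5 reads in WT_MII and 52 and 32 reads in Treat_MII, so its control level is poorly known. The 85 well-measured genes over 2-fold higher without overlap had a median of 35.7 and 54.1 FPKM in the control libraries and 110.2 and 115.8 FPKM in the treated libraries, the values that chose them. In the WT_FGO libraries, which did not choose them, their median was 245 and 229.8 FPKM. The median over all well-measured genes was 44.7 FPKM for the mean of the WT_FGO libraries. Because the WT_MII libraries enter both the maturation and the treatment difference, the 2 differences are not set against each other.

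The subcortical maternal complex, a protein assembly under the oocyte membrane that the early embryo needs, had similar median differences against each control. Of its 8 genes, 7 were well measured, and 5 of these lay above both controls without overlap and 1 below, against 23.4% and 23.3% of all well-measured genes. The median difference of the 7 was 0.87, and it was 0.86 against WT_MII replicate 1 and 0.90 against replicate 2, beside 0.01 over all well-measured genes. Padi6, an organizer of the cytoplasmic lattices, had 1687 and 1369 FPKM in the WT_MII libraries against 3324 and 3406 FPKM in the Treat_MII libraries. Ooep, the KH-domain member of the complex, had 1134 and 995 FPKM in the controls and 2313 and 2249 FPKM in treated oocytes. Tle6, another core member, had 901 and 939 FPKM in Treat_MII, compared with 498 and 263 FPKM in WT_MII. These 3 genes were named for their gap, so by that choice neither treated library reached down to the control range. Nlrp5, which is needed for development past the first cleavage, had 629 and 603 FPKM in the WT_MII libraries against 1082 and 1164 FPKM in the Treat_MII libraries. The fitted differences of the 4 genes were 1.15 ± 0.18, 1.10 ± 0.18, 1.34 ± 0.33 and 0.87 ± 0.29 (SE), none past the adjusted threshold in limma (adjusted p 0.494, 0.494, 0.71 and 0.836). Zbed3, counted with the complex, went the other way, with 8995 and 7693 FPKM in the controls and 4232 and 4122 FPKM in treated oocytes and a difference of -0.99 ± 0.16 (SE). Its treated libraries lay below both controls by similar amounts (-1.11 and -0.88). In WT_FGO, Zbed3 was low (775 and 749.7 FPKM), unlike Padi6 (10477 and 8544 FPKM) and Ooep (14332 and 11484 FPKM).

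NLRP genes of the oocyte all had positive differences from the control mean, but of unequal size. Of 10 well-measured members, 6 lay above both controls and none below, beside 23.4% above and 23.3% below over all well-measured genes, and 3 of the 10 are also counted with the subcortical maternal complex. Together the 11 genes took 1.75% and 2.04% of the reads in WT_MII and 3.18% and 3.10% in Treat_MII. Nlrp14, which is restricted to germ cells, had 5367 and 5238 FPKM in Treat_MII, compared with 2462 and 2791 FPKM in WT_MII and a difference of 1.02 ± 0.19 (SE). Nlrp9a had 133 and 162 FPKM in the WT_MII libraries against 295 and 294 FPKM in the Treat_MII libraries, and its neighbour in sequence Nlrp9b had 73.3 and 95.1 FPKM in the controls and 199.8 and 193 FPKM in treated oocytes. Nlrp4a, Nlrp4b, Nlrp4e and Nlrp4f overlapped the controls, with differences of 0.24, 0.47, 0.52 and 0.25 against WT_MII replicate 1 and -0.21, -0.02, -0.05 and 0.01 against replicate 2. Several of these genes share sequence. Of the 28-base stretches in the coding sequence, about the length of a footprint, 15.00% in Nlrp9a and 11.7% in Nlrp9b also occur in another gene. The shares were 64.1% in Nlrp4e, 25.4% in Nlrp4f, 18.7% in Nlrp5, 15.2% in Nlrp4a and 1.21% in Nlrp4b, and no stretch of Nlrp14 was shared.

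Every well-measured gene of the Fbxw cluster was higher in both Treat_MII libraries than in both controls. These genes encode F-box proteins with WD repeats, substrate adaptors of ubiquitin ligases, and lie next to each other on chromosome 9. There were 12 such members, against a background of 23.4%, and the median difference was 1.10 (1.11 and 1.03 against each control). The cluster took 0.465% and 0.494% of the reads in WT_MII and 0.873% and 0.898% in Treat_MII, and 2.29% and 1.96% in WT_FGO. Fbxw26 had 129.5 and 101.22 FPKM in Treat_MII, compared with 13.01 and 12.4 FPKM in WT_MII, from 3 and 4 reads in WT_MII and 60 and 39 reads in Treat_MII. Its few control reads make the fold uncertain, while both treated libraries lay far above them (difference 3.08 ± 0.38, SE, adjusted p 0.447 in limma). Fbxw18 had 457 and 499 FPKM in the WT_MII libraries against 1040.4 and 1044 FPKM in the Treat_MII libraries. Fbxw21 had 73.3 and 102 FPKM in the controls and 275 and 250.5 FPKM in treated oocytes, and Fbxw13 had 96.8 and 98.3 FPKM in Treat_MII, compared with 25.9 and 40.1 FPKM in WT_MII. The smallest differences were those of Fbxw28 (0.28 and 0.15 against each control) and Fbxw22 (0.24 and 0.51). The 12 are not independent measurements: between 18.1% (Fbxw18) and 85.4% (Fbxw14) of their 28-base coding stretches occur in another gene, so the counting may have split reads between them.

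Among genes of the egg coat and surface, those of the zona pellucida had the largest differences. Zp3, the sperm-binding glycoprotein of the coat, had 486 and 497 FPKM in the WT_MII libraries against 1419 and 1429 FPKM in the Treat_MII libraries, and Zp2 had 774 and 856 FPKM in the controls and 2109 and 2094 FPKM in treated oocytes. Zp1, which cross-links the filaments, had 578 and 558 FPKM in Treat_MII, compared with 296 and 340.0 FPKM in WT_MII. These 3 genes were named for their gap above both controls, and their treated libraries lay close together. Their differences were 1.53 ± 0.31, 1.37 ± 0.34 and 0.84 ± 0.29 (SE), with adjusted p values of 0.642, 0.71 and 0.836 in limma. The differences of the other members ran from 0.14 for Astl, the protease that hardens the coat after fertilization, to 0.63 for Oosp2, a secreted oocyte protein. Of the 9 well-measured members, 7 lay above both controls and none below (23.4% and 23.3% over all well-measured genes), and the median difference was 0.69 against WT_MII replicate 1 and 0.29 against replicate 2.

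**Figure D2:**
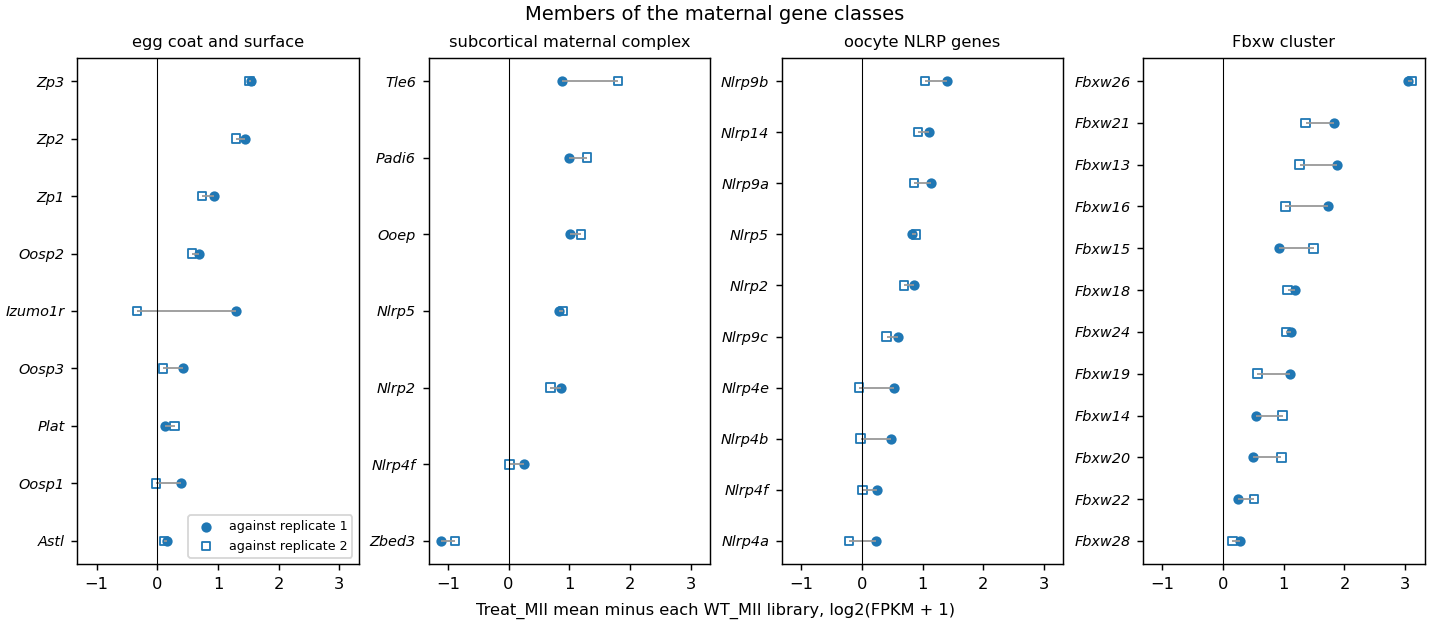
Difference of the Treat_MII mean from WT_MII replicate 1 (filled circles) and replicate 2 (open squares), in log2(FPKM + 1), for each well-measured member of 4 classes. Every Fbxw gene lies right of 0 against both controls, Zbed3 lies left of 0, and the zona genes Zp1, Zp2 and Zp3 lie furthest right in their class.

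Among the oocyte's own growth factors and transcription factors, Bmp15 and Nobox had the largest differences. Bmp15, the X-linked growth factor that oocytes secrete to the follicle, had 237 and 169 FPKM in the WT_MII libraries against 598 and 781 FPKM in the Treat_MII libraries. Nobox, a homeobox factor of oocyte growth, had 7.67 and 21.9 FPKM in the controls and 97.4 and 48.2 FPKM in treated oocytes, but from only 2 and 8 control reads. Gdf9, the partner of Bmp15 in the follicle, had 3550 and 3480.3 FPKM in Treat_MII, compared with 2822 and 3418 FPKM in WT_MII and a difference of 0.18, small though without overlap. Sall4 (-0.48 and -0.47 against each control) and Obox7 (-0.18 and -0.91) lay below both controls. In the class as a whole 4 of 9 well-measured members lay above and 2 below, beside 23.4% and 23.3% of all well-measured genes. Of 19 well-measured maternal chromatin factors, 9 lay above and 4 below. Besides Npm2, the histone chaperone Nasp had 49.7 and 72.8 FPKM in the WT_MII libraries against 125 and 153 FPKM in the Treat_MII libraries, while Tet3, the dioxygenase that oxidizes methylcytosine in the zygote, had 352 and 285 FPKM in the controls and 188 and 171 FPKM in treated oocytes. By the choice of genes without overlap, both treated libraries lay above the controls for Nasp and below for Tet3.

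**Figure D3:**
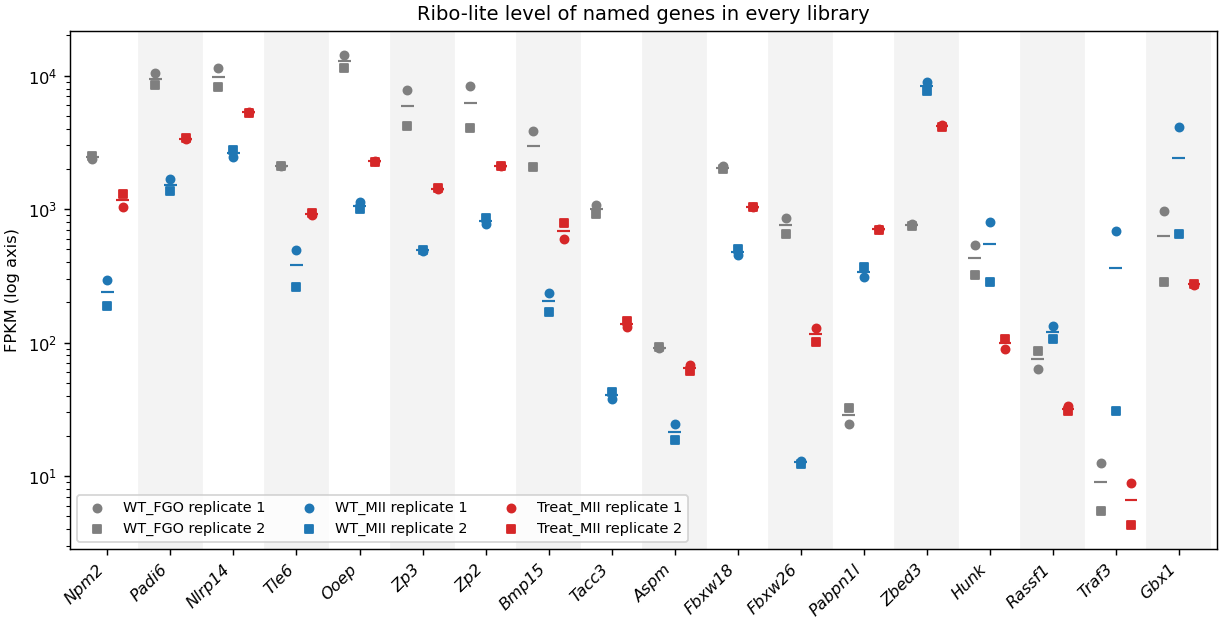
FPKM (log axis) of 18 named genes in the WT_FGO (grey), WT_MII (blue) and Treat_MII (red) libraries; circles are replicate 1, squares replicate 2, and bars the group means. The treated libraries nearly coincide and lie between the control MII and the WT_FGO libraries from Npm2 to Fbxw26, genes picked after their values were seen. For Pabpn1l they lie above both other groups (24.5 and 32.4 FPKM in WT_FGO). Over all 505 genes above both controls, the median of group means was 81.25 FPKM in WT_FGO, 83.88 in WT_MII and 137.3 in Treat_MII. For Hunk, Traf3 and Gbx1 the control libraries lie far apart.

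Of 29 well-measured spindle genes, 13 lay above both controls and 1 below (Numa1, -0.14 and -0.24 against each), beside 23.4% and 23.3% of all well-measured genes, with a median difference of 0.26 and 0.12 against each control. Aspm, which focuses spindle poles, had 67.4 and 61.6 FPKM in Treat_MII, compared with 24.6 and 18.5 FPKM in WT_MII. Tacc3, a microtubule-binding protein of the meiotic spindle, had 37.7 and 42.7 FPKM in the WT_MII libraries against 132 and 145 FPKM in the Treat_MII libraries. Both genes were named for their gap to the controls, which exceeded the distance between libraries of either group. Their differences were 1.55 ± 0.44 and 1.76 ± 0.31 (SE, adjusted p 0.741 and 0.494 in limma). Birc5, the survivin subunit of the chromosomal passenger complex, had 287 and 156 FPKM in the controls and 421 and 359.6 FPKM in treated oocytes. Aurka (-0.07 and -0.26 against each control) and Plk1 (-0.03 and -0.91), kinases of spindle assembly, overlapped the controls. Among cohesin, condensin and recombination genes, the condensin subunit Smc4 had 37.5 and 37.6 FPKM in Treat_MII, compared with 10.98 and 7.85 FPKM in WT_MII, from 7 reads in each control library.

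Genes that drive and hold the meiotic divisions lay nearer to WT_MII replicate 2 than to replicate 1. Of 13 well-measured genes of the anaphase-promoting complex and the spindle checkpoint, 6 lay above both controls and 1 below. Over all well-measured genes these shares were 23.4% and 23.3%. The median difference of the 13 genes was 0.57 against WT_MII replicate 1 but 0.11 against replicate 2. Bub1b, the BUBR1 checkpoint kinase, had 2001 and 2269.7 FPKM in the WT_MII libraries against 2918 and 2887 FPKM in the Treat_MII libraries, and Pttg1, the securin that holds separase in check, had 5409 and 8067 FPKM in the controls and 10011 and 10161 FPKM in treated oocytes. Cdc20, an activator of the complex, had 425 and 448 FPKM in Treat_MII, compared with 340.1 and 344 FPKM in WT_MII. Among cyclins and cytostatic factor genes, 5 of 13 lay above and 2 below. Mos, the kinase upstream of the MII arrest, had 1160.5 and 1473 FPKM in the WT_MII libraries against 1669 and 1573 FPKM in the Treat_MII libraries. Ccna2, encoding cyclin A2, had 119.9 and 49.4 FPKM in the controls and 16.1 and 24.9 FPKM in treated oocytes, with treated libraries below both controls on few reads (26 and 15 reads in WT_MII and 7 and 9 reads in Treat_MII). In the class of cyclins and cytostatic factors the median was 0.59 against replicate 1 and 0.0027 against replicate 2.

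Classes of protein folding, turnover and energy supply are read beside the 23.4% above and 23.3% below of all well-measured genes. Of 14 well-measured chaperonin and heat shock genes, 8 lay above both controls and 1 below (Hspa9, -0.24 and -0.34 against each), with medians of 0.49 and 0.53 against replicates 1 and 2. Cct5, a subunit of the chaperonin that folds actin and tubulin, had 65.1 and 64.8 FPKM in Treat_MII, compared with 14.9 and 21.3 FPKM in WT_MII, and its partner subunits Cct2, Cct7 and Tcp1 had differences of 2.31, 1.12 and 0.54 against WT_MII replicate 1 and 0.96, 1.40 and 1.63 against replicate 2. Their control reads were few, 4 and 8 for Cct5. Pdia3, which forms disulfide bonds in the endoplasmic reticulum, had 24.01 and 11.4 FPKM in the WT_MII libraries against 112 and 98.2 FPKM in the Treat_MII libraries. Its control level rests on 6 and 4 reads. In WT_FGO Pdia3 had 1001 and 831 FPKM, but of the 14 genes in its class 3 lay above and 1 below. Of 11 genes of the nuclear-encoded respiratory chain, 6 lay above both controls and none below, with medians of 0.49 and 0.36 against each control. Of 6 pyruvate, citrate cycle and glycolysis enzymes, 1 lay above and none below. Cox7a2 had 73.03 and 313 FPKM in the controls and 412 and 321 FPKM in treated oocytes, the largest part of its difference again lying with WT_MII replicate 1. Among mitochondrially encoded genes, mt-Nd6 had 1790 and 1582 FPKM in Treat_MII, compared with 764 and 823 FPKM in WT_MII and mt-Co1 had 428 and 719 FPKM in the WT_MII libraries against 1014 and 965 FPKM in the Treat_MII libraries, whereas mt-Cytb had 869 and 1249 FPKM in the controls and 818 and 695 FPKM in treated oocytes and so lay below both controls. Proteasome genes stood at 5 of 13 above and none below. Among them Psmc6 of the base had 109 and 111 FPKM in Treat_MII, compared with 34.1 and 38.3 FPKM in WT_MII (7 and 11 control reads).

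Of the 6 genes that the study followed, Zar1, Pabpn1l and Btg4 lay above both controls, Dhx36 below, and Cnot7 and Ccnb1 overlapped them. In the study, BTG4, CNOT7 and cyclin B1 protein fell with BYBX. Reporters with the 3′ untranslated region of Pabpn1l, Btg4 or Ccnb1 were also repressed, as was a Zar1 5′ reporter in oocytes arrested before maturation. Those are protein measures, unlike the footprint shares given here. Zar1, which stores mRNAs in the mitochondria-associated domain of the oocyte, had 218 and 264 FPKM in the WT_MII libraries against 415 and 399 FPKM in the Treat_MII libraries, and Pabpn1l, a poly(A)-binding adaptor of maternal mRNA decay, had 309 and 371 FPKM in the controls and 713 and 697 FPKM in treated oocytes. Both treated libraries lay above both controls in both genes, by 0.76 ± 0.24 and 1.06 ± 0.32 (SE, adjusted p 0.824 and 0.802 in limma). Btg4, the adaptor that brings the deadenylase to these mRNAs, had 5959 and 5619 FPKM in Treat_MII, compared with 4772 and 4869 FPKM in WT_MII. Its deadenylase partner Cnot7 had 1936 and 2376 FPKM in the WT_MII libraries against 2499 and 2372 FPKM in the Treat_MII libraries, and Ccnb1, encoding cyclin B1, had 235 and 322 FPKM in the controls and 281 and 371 FPKM in treated oocytes. In both genes the ranges of the groups crossed. Reads of Ccnb1 cannot be placed with confidence, since 92.3% of its 28-base coding stretches occur in other gene models. The share was 44.00% for Zar1. Among the genes above, it was also 66.7% for mt-Co1, 49.8% for Obox7, 37.7% for Cdc20, 26.1% for Elobl, 24.5% for Hspa9 and 21.3% for Plk1. Dhx36, a helicase that unwinds G-quadruplexes, had 146 and 118 FPKM in Treat_MII, compared with 166 and 237 FPKM in WT_MII and lay below both controls, with differences of -0.33 and -0.84 against each. Of all 14 well-measured DEAD and DEAH-box helicases, 6 lay above both controls and 1 below, beside 23.4% and 23.3% of all well-measured genes. The medians of the helicases were 0.47 and 0.08 against each control. Among the 6 above were Dhx57 (1.31 and 0.55), Ddx49 (0.96 and 0.67) and Dhx9 (0.82 and 0.66).

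Across all 16 well-measured genes of mRNA storage and translational control, 7 lay above and 6 below. Counts of this and the following classes are read beside 23.4% above and 23.3% below of all well-measured genes. Ssb, the La protein that binds RNA ends, had 77.9 and 48.7 FPKM in the WT_MII libraries against 281 and 277 FPKM in the Treat_MII libraries, the largest difference of the class (2.16 ± 0.35, SE). Eif4enif1, a repressor that shuttles the cap-binding protein, had 12.3 and 17.6 FPKM in the controls and 40.9 and 34.5 FPKM in treated oocytes. Its control level rests on 6 and 12 reads. Lsm14b, an RNP component needed to store mRNAs, had 185 and 203 FPKM in Treat_MII, compared with 481 and 354 FPKM in WT_MII and lay below. The deadenylation and decay class was split, 5 above and 4 below of 16: the scaffold of the CCR4-NOT complex, Cnot1, had 4.96 and 2.95 FPKM in the WT_MII libraries against 17.3 and 9.89 FPKM in the Treat_MII libraries on 6 and 5 control reads, and the decapping cofactor Dcp1a had 994 and 978 FPKM in the controls and 659 and 583 FPKM in treated oocytes. Initiation factors stood at 4 above and 1 below of 17. Elongation factors and tRNA synthetases stood at 2 and 3 of 14. Proteins known to bind rG4s, other than helicases, stood at 2 and 2 of 13 with a median of -0.02, close to that of all well-measured genes. The large ribosomal proteins had no well-measured member, so nothing is read from them.

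**Figure D4:**
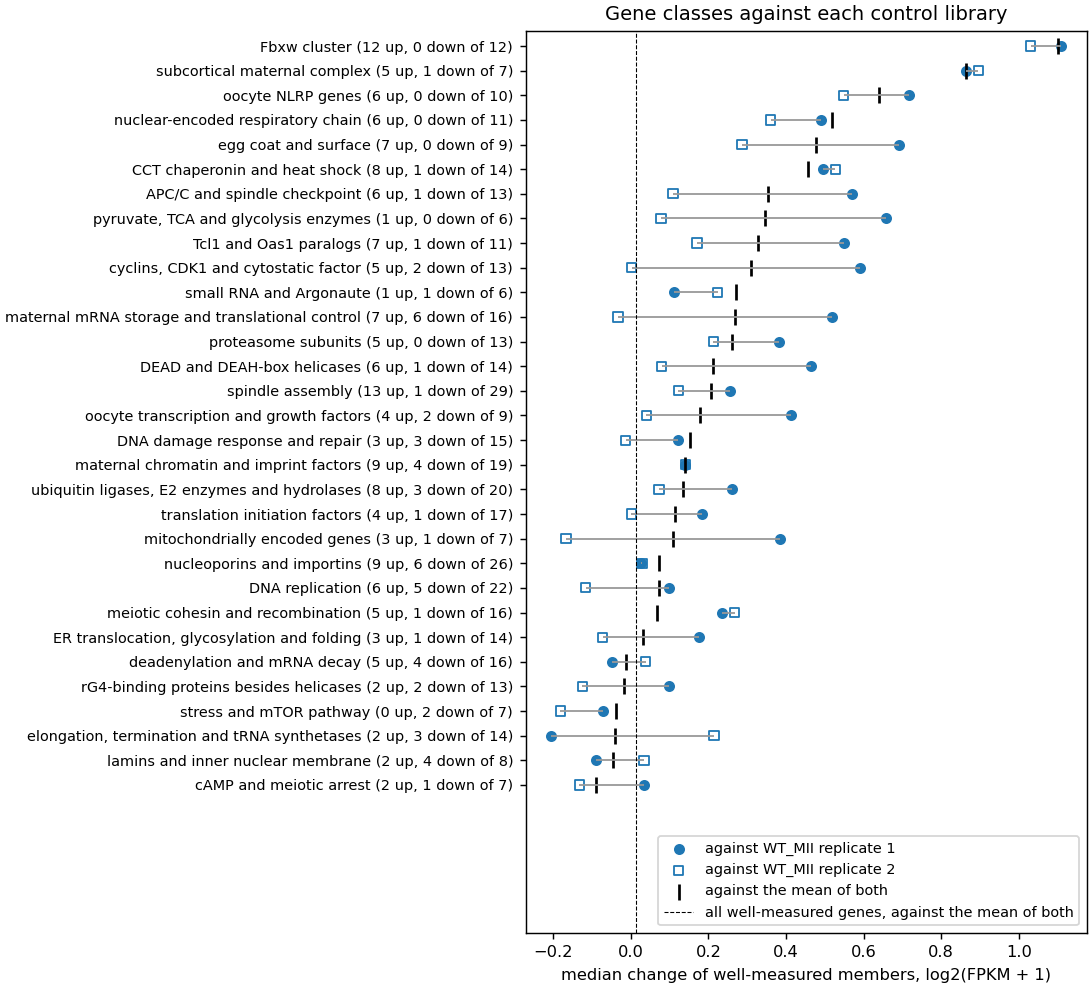
Median difference of the well-measured members of each gene class with at least 5 of them, in log2(FPKM + 1), against WT_MII replicate 1 (filled circles), replicate 2 (open squares) and the mean of both (bars); the dashed line is the median of all well-measured genes. Brackets give how many members lay above and below both controls without overlap; the Fbxw cluster, the subcortical maternal complex and the NLRP genes lie furthest right against both controls, and many other classes lie near the line against replicate 2.

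On both sides more genes passed 2-fold against WT_MII replicate 1 than against replicate 2. Of the 119 genes over 2-fold lower without overlap, 108 passed 2-fold against replicate 1 and 52 against replicate 2. Of the 85 over 2-fold higher without overlap, 73 and 55 did. By gap the downward order was Gtf3c2, Traf3, Rassf1, Ap4e1, Hunk, Xab2, Dek, Wdr5, Twf2, Gbx1, Vrk3 and Stac2. Gtf3c2, a subunit of the RNA polymerase III factor TFIIIC, had 62 and 4 reads in WT_MII and 0 and 0 reads in Treat_MII. Against a floor of 3 reads over both treated libraries, it was at least 33.7-fold lower than in the pooled controls, but at least 76.0-fold against WT_MII replicate 1 and at least 3.50-fold against replicate 2. Of its 28-base coding stretches, 86.8% occur in another gene. Traf3, an adaptor of innate immune signalling, had 8.87 and 4.27 FPKM in Treat_MII, compared with 688 and 30.6 FPKM in WT_MII. Its reads were 193 and 12 in WT_MII and 5 and 2 in Treat_MII. Gbx1, a homeobox gene of the nervous system, had 4152 and 649 FPKM in the WT_MII libraries against 272 and 275 FPKM in the Treat_MII libraries. In both genes the control libraries lay further apart than replicate 2 lay from the treated libraries. Hsd17b1, an estradiol-forming enzyme of granulosa cells, had 1956 and 256 FPKM in the controls and 202 and 204 FPKM in treated oocytes, and Kif15, a spindle motor, had 59.6 and 40.4 FPKM in Treat_MII, compared with 300.1 and 39.3 FPKM in WT_MII. In both, only WT_MII replicate 1 was high.

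In other genes on the downward side the controls lay closer together. Rassf1, a microtubule-associated tumour suppressor, had 134 and 107 FPKM in the WT_MII libraries against 33.3 and 30.8 FPKM in the Treat_MII libraries, with differences of -2.03 and -1.70 against each control. Twf2, an actin-capping protein, had 297 and 252 FPKM in the controls and 91.7 and 101.04 FPKM in treated oocytes, and Wdr5, a core subunit of histone methyltransferases, had 141 and 149 FPKM in Treat_MII, compared with 387 and 375 FPKM in WT_MII. Ap4e1, a subunit of the AP-4 vesicle coat, had 36.96 and 55.3 FPKM in the WT_MII libraries against 7.89 and 12.6 FPKM in the Treat_MII libraries. Dek, a chromatin protein, had 106 and 79.6 FPKM in the controls and 22.7 and 30.3 FPKM in treated oocytes. All 5 genes were named for their gap, so their treated libraries lay below both controls by that choice. Treated reads were 9 and 10 for Dek and 36 and 33 for Twf2. Hunk, a serine/threonine kinase, had 90.2 and 107 FPKM in Treat_MII, compared with 799.9 and 287 FPKM in WT_MII, with its controls further apart and a difference of -2.28 ± 0.55 (SE, adjusted p 0.71 in limma). Few classes had more members below than above, and their counts were small. Lamins and inner nuclear membrane proteins stood at 2 above and 4 below of 8, and stress and mTOR genes at 0 and 2 of 7. Over all well-measured genes the shares were 23.4% above and 23.3% below.

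Sequence motifs that can fold into a G-quadruplex were searched in the longest coding transcript of each gene (GENCODE mouse release 21, GRCm38). A match needed 4 G runs, each 3 or more bases long, on the transcript strand and separated by loops of 1 to 7 bases. Such sites stood in the untranslated regions (UTRs) of several named genes on both sides of the comparison, and 6 are shown with the G runs in capitals to let their runs and loops be compared.
Ooep, 5′-UTR, chr9:78378590-78378607, minus strand: GGGcGGGGtcGGGctGGG
Eif4enif1, 5′-UTR, chr11:3203037-3203059, plus strand: GGGcctGGGtgaGGGGccaGGGG
Pabpn1l, 3′-UTR, chr8:122619582-122619598, minus strand: GGGcaGGGaGGGGaGGG
Hunk, 5′-UTR, chr16:90386355-90386372, plus strand: GGGccGGGcGGGGccGGG
Gbx1, 5′-UTR, chr5:24526914-24526932, minus strand: GGGcGGGcGGGGtcccGGG
Lsm14b, 3′-UTR, chr2:180034786-180034802, plus strand: GGGtGGGaGGGccaGGG
The first 3 genes were higher in both Treat_MII libraries and the last 3 lower, so a motif of this form was present on both sides. A match is a description of the sequence, not a measured rG4. The study reports a folded rG4 in the Zar1 5′-UTR, where the search listed no site. Genes without a match can therefore also hold rG4s.

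Of all tested genes with the region annotated, 7.24% held the motif in the 5′-UTR, 4.51% in the coding sequence and 10.75% in the 3′-UTR. Over the well-measured genes, 6.32% held the motif in the 5′-UTR, 4.04% in the coding sequence and 8.67% in the 3′-UTR. Of the 132 genes with a 5′-UTR motif, 23 (17.4%) lay above both controls and 33 (25%) below, against 24.2% and 22.8% of those without. Of the 183 genes with a 3′-UTR motif, 25 (13.7%) lay above and 49 (26.8%) below, against 24.5% and 22.9%. For the coding sequence, 10 (11.5%) of 87 lay above and 25 (28.7%) below, against 23.9% and 23.1%. Median differences with the motif were 0.02, -0.25 and -0.11 in the 5′-UTR, the coding sequence and the 3′-UTR, beside 0.03, 0.03 and 0.04 without it. Against WT_MII replicate 2 alone, the medians with and without the motif were -0.13 and -0.04 in the 5′-UTR, -0.26 and -0.04 in the coding sequence, and -0.17 and -0.04 in the 3′-UTR. In each region the share of genes above the controls was lower with the motif, a difference that was not tested.

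Composition moved with the same split. Genes with a 3′-UTR motif had longer and more GC-rich 3′-UTRs (median 1908 bases and 47.9% GC) than those without (914.5 bases and 41.1% GC). Among well-measured genes at or above the median GC content and length of the region, a restriction added after the data were seen, 16 (20.8%) of 77 genes with a 5′-UTR motif lay above and 21 (27.3%) below, beside 16.7% and 30.2% of 431 without. In the 3′-UTR 13 (12.04%) of 108 lay above and 31 (28.7%) below, beside 18.7% and 30.5% of 407 without. In the coding sequence the shares were 16.7% and 37.0% of 54, beside 14.4% and 32.9% of 453. Within this GC-rich set the order was not the same in each region, since the share below was lower with the motif in both UTRs and higher in the coding sequence. Over all well-measured genes, the 505 genes above both controls had a median coding GC content of 48.6% and a median coding length of 1557 bases, against 51.5% and 2211 bases for the 503 below and 50.3% and 1790 bases for the 1148 that overlapped. The part of GC content and length in the comparison was not tested.

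**Figure D5:**
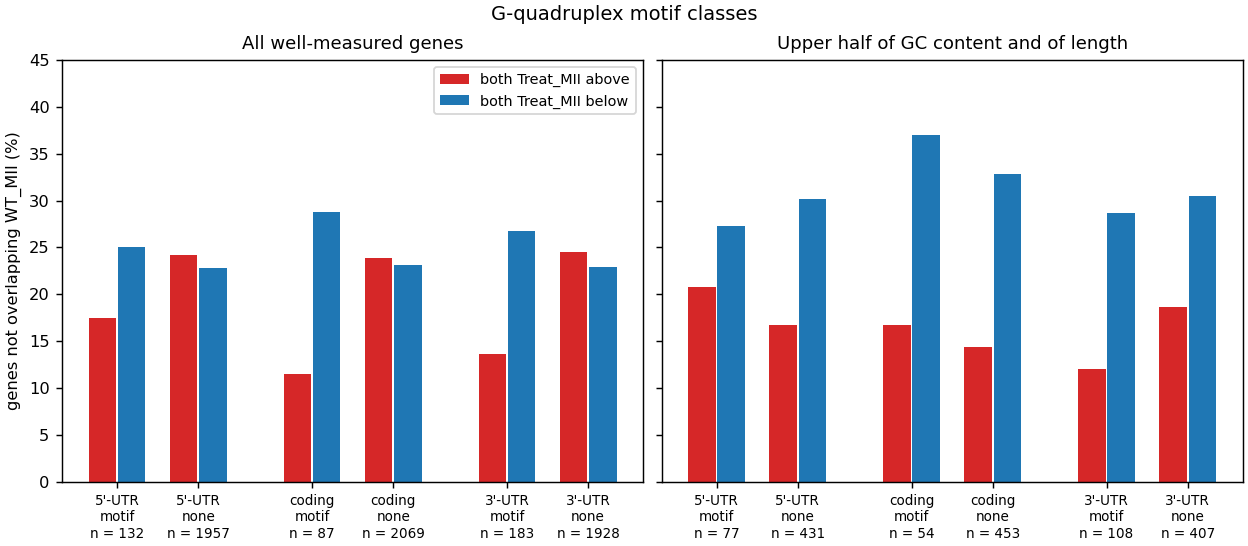
Share of well-measured genes (percent) with both Treat_MII libraries above (red) or below (blue) both WT_MII libraries, for genes with and without the G-quadruplex motif in each transcript region, over all well-measured genes (left) and over those at or above the median GC content and length of that region (right). With the motif the red bars are lower on the left (17.4%, 11.5% and 13.7%), while on the right they are lower with the motif in the 3′-UTR (12.04% beside 18.7%) but not in the 5′-UTR (20.8% beside 16.7%).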

How the data were processed

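Ribosome footprints were measured by Ribo-lite, ribosome profiling for few cells, in 6 libraries of 3 groups. The authors deposited FPKM values per gene, without pooling libraries, and no spike-in scaling is stated. The submitters' processing notes name cutadapt 1.14, Bowtie2 2.2.2, STAR 2.5.3a and the mm10 build. The counter, its annotation release and its handling of duplicate reads and multiple matches are not given in the sources used here. Of repeated gene names the entry with the highest mean was kept.

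Whole reads were recovered from FPKM and the annotated coding length. In 98.4% of 21937 genes with 1 coding gene ID (96.3% of all genes), all 6 values were whole within 0.02 reads. One read per kilobase was worth between 3.02 and 10.6 FPKM, and intervals from reads would cover counting error only. Genes whose mean over the 6 libraries reached 1 FPKM entered the test, made with limma 3.58.1 in R 4.3.3 on log2(FPKM + 1), with a mean-variance trend, the 3 groups sharing 1 spread, two-sided, with Benjamini-Hochberg adjustment. Differences are Treat_MII minus WT_MII on this scale, where the pseudocount of 1 shrinks changes of weakly read genes. A gene did not overlap where both Treat_MII libraries lay on the same side of both WT_MII libraries. The fit was tested on simulated data in which all groups had the same spread. That setting did not hold the wider spread between the WT_MII libraries.

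Members and gene lists were chosen with earlier results of these data known. Named genes were the 12 largest gaps between groups in each direction, up to 4 members per list by gap, and 6 genes followed by the study. Precision-weighted calls entered only from the fit on well-measured genes. Other genes in the text illustrate their list and were chosen after their values were seen. Alternatives covered the pseudocount, filters, scaling, the replicate number, weights and each library left out.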

Additional observations from a re-analysis of the deposited data

How the results depend on the processing

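The count of 0 called genes remained 0 with a pseudocount of 0.1, other filters, centring, quantile scaling, no trend and only the 4 MII libraries, but not with weights or with a library left out. With voom precision weights on the recovered reads, limma called 65 genes higher and 100 lower among 14545, of which 83 had an MII library at 0. On the well-measured genes it called 1 higher and 0 lower, and with library quality weights 15 higher and 16 lower, both added after seeing the data. Leaving out 1 library gave 17 to 400 genes called higher and 0 to 387 lower, the lone library being assumed to vary like the other groups. Without WT_MII replicate 1 the counts were 17 and 347, without WT_MII replicate 2 they were 31 and 387, and without Treat_MII replicate 1 or 2 they were 363 or 400 higher and 0 lower. Of these, 345, 377, 361 and 398 were genes at 0 in the whole opposite pair and in WT_FGO.

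Counts past 2-fold were 1614 higher and 1698 lower where means reached 5 FPKM, 86 and 150 among well-measured genes, and 2646 to 4551 and 2605 to 3983 with a library left out (4551 higher without WT_MII replicate 2). Among well-measured genes they were 221 higher against WT_MII replicate 1 alone and 89 lower against replicate 2 alone. Non-overlapping genes numbered 505 and 503 among well-measured genes, since fewer genes entered.

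Over tested members, the median of the subcortical maternal complex was 0.98, and 0.82 with quantile scaling (0.85 to 1.05 with a library left out). That of the NLRP genes was 0.50 (0.41 to 0.76), that of the egg coat 0.48 (0.29 to 0.69), and that of the Fbxw cluster 1.10, or 0.9999 with quantile scaling (1.03 to 1.15). The median of mRNA decay genes turned from 0.12 to -0.013 among well-measured genes, and ran from -0.0353 (without Treat_MII replicate 2) to 0.114 with a library left out, with -0.015 without WT_MII replicate 2. That of stress and mTOR genes turned from 0.06 to -0.0383 among well-measured genes, and ran from -0.0228 (without WT_MII replicate 2) to 0.165 with a library left out, with -0.0039 without WT_MII replicate 1. Medians of genes with the G-quadruplex motif were 0, -0.12 and -0.06 over tested genes, for the 5′-UTR, the coding part and the 3′-UTR. Among well-measured genes they were 0.0199, -0.25 and -0.114, and at or above the median GC content and length, added after seeing the data, 0.0309, -0.27 and -0.184. With runs of at least 2 G the 3′-UTR median was 0. Slbp turned to -0.0154 with quantile scaling and ran from -0.159 (without WT_MII replicate 1) to 0.329 with a library left out. Vwf ran from -0.228 (without Treat_MII replicate 1) to 0.362, with -0.135 without WT_MII replicate 1. The other alternative values of named genes kept their direction, 1339 of 1390 on the same side of the threshold and 47 now past it. The causes of these moves were not tested.

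With the replicate number as a block, 0 genes were called higher and 0 lower. Same-numbered libraries did not deviate together (correlations 0.05, 0.0011 and -0.0097 over 2156 genes). With 2 libraries per group, this cannot tell whether same-numbered libraries were collected together. With 2 libraries per group and at most 331304 reads, depth limits most genes: 15129 were tested and 2156 were well measured.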
